A study of Mus musculus with 6 samples.

Results

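The 36 genes described here mark endothelial cells, the layer that lines blood and lymph vessels, or serve leukocyte adhesion on that layer. They were chosen by name, as the non-control probes of the array whose gene name was one of the 36, and they accounted for 47 of 55681 probes and 36 of 34821 gene names. Of the 36 genes, 32 belong to blood endothelium and 4 to lymphatic endothelium (Lyve1, Prox1, Flt4 and Mmrn1), and the lymphatic genes were kept apart. RNA came from aortic arches of female mice, strain label C57BL/6, on 6 arrays of 1 colour with 3 mice per group per the series design. In the first group, BM Mir21 KO, irradiated Mir21+/+ recipients carried marrow from Mir21-/- donors, and in the second, BM Mir21 WT, irradiated Mir21+/+ recipients carried marrow from Mir21+/+ donors. Every animal had received 2 x-ray doses of 5 Gy within 4 h, the marrow injection on the next day and, from 3 weeks after irradiation, a high-fat diet for 12 weeks, and the ages of the mice were not given in the labels. The deletion therefore lay in marrow-derived cells and not in the recipients' own vessel wall, and the share of recipient blood cells that remained was not given. The array held 0 probes named for miR-21, so the genotype labels were not checked against it.

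Endothelial cells are held together by VE-cadherin (Cdh5) and other junction proteins, and they read growth signals through the VEGF receptors Kdr and Flt1 and through the angiopoietin receptor Tek with its relative Tie1. Transcription factors of the ETS family (Erg, Fli1) and the SOXF family (Sox7, Sox17, Sox18) maintain their identity. In arteries under a high-fat diet, endothelial cells display selectins and the immunoglobulin-type adhesion molecules Icam1 and Vcam1, on which monocytes roll and arrest.

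The arrays had 66.4% to 74.4% of spots well above background and 0 saturated spots, and the array of KO replicate 3 was lowest in that share and in its 75th percentile of signal (239, against up to 407). All 6 arrays were on 1 slide and in 1 scan, with the KO arrays in one slide row and the WT arrays in the other, so slide row and marrow genotype cannot be told apart. KO replicates 2 and 3 stood apart in fat-cell RNA. The 10 white adipocyte markers together summed to 678, 159 and 81.6 on KO arrays 1, 2 and 3, against 732, 422 and 799 on WT arrays 1, 2 and 3, in units of the array's 75th percentile. The sums of 8 brown adipocyte markers were 1062, 155 and 65.2 on the KO arrays, against 983, 483 and 1018 on the WT arrays. All 9 contractile smooth muscle markers were tested, 8 with positive differences and 1 with a negative one at a median of 0.28, and they summed to 1967, 2291 and 3035 on the KO arrays, against 1831, 2243 and 1812 on the WT arrays. The 7 cardiac muscle markers summed to 35.6, 7.78 and 21.5 on the KO arrays, against 6.41, 12.4 and 6.76 on the WT arrays. The part of muscle in the endothelial values was not tested. The endothelial markers Pecam1, Cdh5, Vwf and Nos3 were well above background on all 6 arrays. In whole arches, fewer endothelial cells and less endothelial RNA per cell cannot be told apart.

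Levels are given as log2 signal relative to the 75th percentile of the same array, in the order of replicates 1, 2 and 3, and a difference is the KO mean minus the WT mean of these levels with its standard error. A probe was tested where 1 group or both had it well above background on each of their 3 arrays, and a gene is represented by its brightest tested probe. By that rule 33 of the 36 genes were tested, and 32 of them were well above background on all 6 arrays. Sele, Flt4 and Prox1 were not tested.

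None of the 33 genes passed the limma test after Benjamini-Hochberg adjustment over all 38341 tested probes, where the lowest adjusted p of a member was 0.445. The background was equally low: 0.00261% of tested probes passed, a single probe, whose gene name in the files is Gm129 (named here after its value was seen). At an unadjusted limma p under 0.05, 3 of the 33 genes were lower in KO-marrow arches (9.09%), against 4.27% of all tested probes, and 0 were higher, against 4.44%. The 3 genes were Ramp2, Flt1 and Esam, and they were also the 3 whose KO and WT arrays did not overlap, lower in KO. Groups lower in KO without overlap made up 9.09% of the genes and 6.14% of all tested probes, and groups higher in KO without overlap made up 0 genes and 7.58% of all probes. The count of 3 moved with single arrays. It was 13 without KO replicate 1, and 1 without KO replicate 2, without KO replicate 3 or without WT replicate 1. The share of all tested probes in those settings is not given, so these counts are not read as particular to endothelial genes. The median difference of the 31 tested blood endothelial genes was -0.20, with 19 negative and 12 positive, beside a median of 0.02 over all tested probes, of which 46.8% were negative. Without KO replicates 2 and 3, a setting added after the fat-cell markers had been seen, the blood endothelial median was -0.0064. That setting leaves KO replicate 1 alone against the 3 WT arrays. Here and below, its differences therefore only restate the level of that array and are no separate check.

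**Figure D1:**
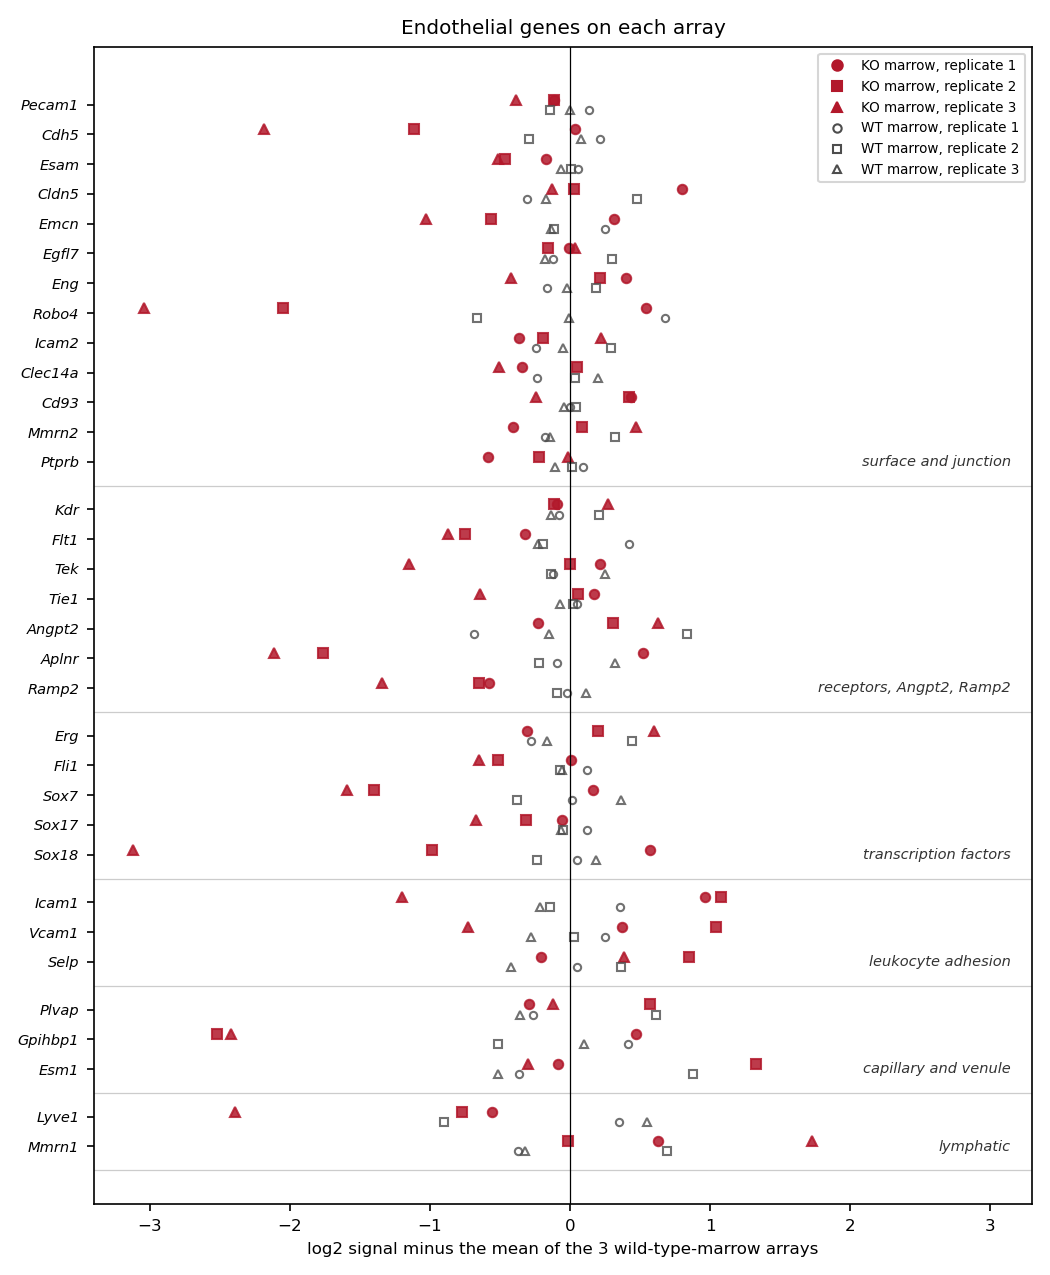
Levels of the 33 tested endothelial genes on each array, as log2 signal minus the mean of the 3 WT-marrow arrays (x axis), grouped by role down the page; filled red symbols are KO-marrow arrays and open grey symbols WT-marrow arrays, with circle, square and triangle for replicates 1, 2 and 3. Robo4, Gpihbp1, Sox18, Aplnr and Cdh5 have the KO square and triangle far to the left with the KO circle among or right of the WT symbols, while all 3 KO symbols of Ramp2, Flt1 and Esam lie left of the WT symbols.

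Among the surface and junction genes, Pecam1, the platelet-endothelial adhesion molecule found all over the endothelial surface, read 0.91, 0.90 and 0.63 in KO-marrow arches, against 1.15, 0.88 and 1.02 in WT-marrow arches. The groups overlapped, and the difference was -0.20 ± 0.16 (adjusted p = 0.75 by limma). Esam, an adhesion molecule of endothelial tight junctions and platelets, read 2.47, 2.18 and 2.13 in KO-marrow arches, against 2.70, 2.65 and 2.58 in WT-marrow arches. Each KO array lay under every WT array, at a difference of -0.38 ± 0.16, which is 1.30-fold lower, with an unadjusted p of 0.048 and an adjusted p of 0.57.

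Cdh5, the cadherin of endothelial adherens junctions, read 1.99, 0.84 and -0.23 in KO-marrow arches, against 2.17, 1.66 and 2.03 in WT-marrow arches. KO replicate 1 was inside the WT range and KO replicates 2 and 3 were under it. The difference of -1.09 ± 0.50 had an adjusted p of 0.60 and was 0.04 without KO replicates 2 and 3. Robo4, an endothelial receptor of the roundabout family that steadies the vessel barrier, showed the same array order. It read 2.82, 0.23 and -0.77 in KO-marrow arches, against 2.95, 1.61 and 2.26 in WT-marrow arches, with a difference of -1.52 ± 0.84 (adjusted p = 0.65) and 0.55 without KO replicates 2 and 3.

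The other 9 surface and junction genes overlapped between groups. Emcn, the sialomucin endomucin, had a difference of -0.43 ± 0.33, Ptprb, the phosphatase that acts on Tek and Cdh5, of -0.27 ± 0.19, and Icam2, a ligand of leukocyte integrins that endothelial cells carry at rest, of -0.11 ± 0.22. Egfl7, a secreted endothelial matrix protein, differed by -0.04 ± 0.18 and Eng, a co-receptor for TGF-beta ligands, by 0.07 ± 0.24. Mmrn2, a matrix ligand of Clec14a and Cd93, differed by 0.05 ± 0.26, Cd93 itself by 0.20 ± 0.22 and the tight junction claudin Cldn5 by 0.23 ± 0.31. These differences ran in both directions, and adjusted p was 0.71 or higher for each of them. The probes of Clec14a had opposite signs, -0.27 ± 0.21 at the brighter probe and 0.30 ± 0.18 at the dimmer one, which was well above background on 2 of the 3 KO arrays. Over the 13 genes of this kind, the median difference was -0.20, with 9 negative and 4 positive.

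The probes of the VEGF receptor Kdr gave unlike readings. The 2 probes of Kdr, the main signalling receptor for VEGF-A, match stretches 1086 bases apart on the minus strand of chromosome 5 (mm9, per the files), the upstream one at chr5:76330395-76330454 and the downstream one at chr5:76329309-76329368. Their first 30 bases of 60 are shown because the gene's result depends on which of these stretches is read. Whether the stretches are coding or untranslated was not analysed here.
Kdr upstream probe: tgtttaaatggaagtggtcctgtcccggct
Kdr downstream probe: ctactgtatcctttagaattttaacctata

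At the upstream probe, which was the brighter, Kdr read 3.60, 3.58 and 3.96 in KO-marrow arches, against 3.62, 3.90 and 3.56 in WT-marrow arches. The groups overlapped, at a difference of 0.02 ± 0.18 (adjusted p = 0.98). At the downstream probe it read 2.38, -0.37 and -0.70 in KO-marrow arches, against 2.10, 1.56 and 1.84 in WT-marrow arches. KO replicate 1 was above all WT arrays there and KO replicates 2 and 3 were below all of them. The difference was -1.40 ± 0.73 (adjusted p = 0.63), and 0.54 without KO replicates 2 and 3. The gap between the probes' differences was not tested.

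Flt1, a VEGF receptor that also acts as a decoy for its ligands, read 3.26, 2.83 and 2.71 in KO-marrow arches, against 4.00, 3.38 and 3.35 in WT-marrow arches at its brightest probe. The groups did not overlap, and the difference of -0.65 ± 0.24 is 1.57-fold lower, with an unadjusted p of 0.0295 and an adjusted p of 0.54. The other Flt1 probes had differences of -0.44 ± 0.24 and -0.27 ± 0.30, the dimmest of them well above background on 2 of 3 KO arrays. That last probe was tested only because all 3 WT arrays had it well above background, so its sign adds nothing.

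**Figure D2:**
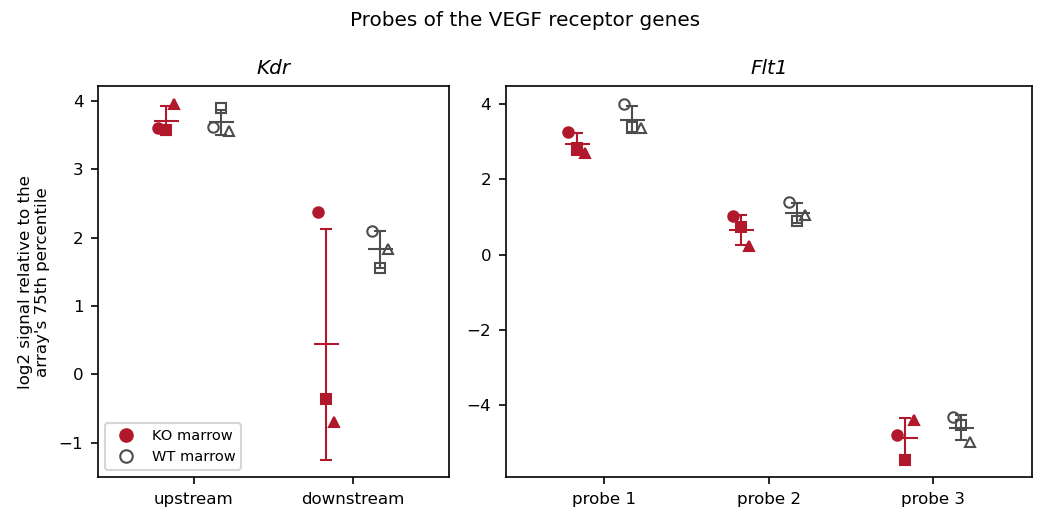
Log2 signal relative to the array's 75th percentile (y axis) at the probes of Kdr and Flt1, with filled red symbols for KO-marrow arrays, open grey symbols for WT-marrow arrays, circle, square and triangle for replicates 1, 2 and 3, and bars for the mean and SD of 3 arrays; heights are to be compared within a probe. The KO arrays of the downstream Kdr probe run from -0.70 to 2.38 while those of the upstream probe stay between 3.58 and 3.96, and the first Flt1 probe has all KO arrays under all WT arrays.

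Ramp2 gave the smallest p of the 33 tested genes. Its protein escorts the receptor Calcrl to the surface, where the pair binds adrenomedullin, a peptide that stabilises the endothelial barrier. It read 3.56, 3.49 and 2.80 in KO-marrow arches, against 4.12, 4.05 and 4.26 in WT-marrow arches. No KO array reached the lowest WT array, and the difference of -0.86 ± 0.23 is 1.81-fold lower, with an unadjusted p of 0.0068 and an adjusted p of 0.45. It was between -0.996 and -0.58 over the 16 other settings tried, with the same sign in each. Because the groups did not overlap, leaving arrays out could not change that sign, so it is no separate check.

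Tek, the receptor for angiopoietins, read -1.48, -1.69 and -2.84 in KO-marrow arches, against -1.81, -1.83 and -1.44 in WT-marrow arches, a difference of -0.31 ± 0.35 (adjusted p = 0.82). Only KO replicate 3 lay outside the WT range on the low side, and without that array the difference was 0.11. Tie1, the orphan partner of Tek, differed by -0.14 ± 0.23, and Angpt2, the angiopoietin that endothelial cells release on activation, by 0.24 ± 0.40. Aplnr, the apelin receptor, which in mouse marks sprouting and venous endothelium, read -0.78, -3.06 and -3.41 in KO-marrow arches, against -1.39, -1.52 and -0.98 in WT-marrow arches. Here KO replicate 1 was the highest array of all and KO replicates 2 and 3 were the lowest. The difference of -1.12 ± 0.63 (adjusted p = 0.65) was 0.52 without those arrays.

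Of the 5 transcription factors, 4 had negative differences, with a median of -0.38. Sox17, the SOXF factor of arterial endothelium, read -0.55, -0.81 and -1.16 in KO-marrow arches, against -0.37, -0.54 and -0.56 in WT-marrow arches. KO replicate 1 fell within the WT range and the others lay below it, at a difference of -0.35 ± 0.20 (adjusted p = 0.65). The dimmer Sox17 probe had a difference of -0.82 ± 0.32 (unadjusted p = 0.0375, adjusted p = 0.56), with the same sign.

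Sox18, which in mouse acts in both blood and lymphatic vessel growth, read 1.11, -0.45 and -2.59 in KO-marrow arches, against 0.58, 0.30 and 0.72 in WT-marrow arches. The KO arrays spread over more than the whole WT range on both sides, and the difference of -1.18 ± 0.80 (adjusted p = 0.71) was 0.57 without KO replicates 2 and 3. Sox7 differed by -0.94 ± 0.46 and Fli1, an ETS factor that leukocytes and megakaryocytes also express, by -0.38 ± 0.21 (adjusted p = 0.61 and 0.64), and they were 0.17 and 0.01 without KO replicates 2 and 3. Erg, the ETS factor most typical of endothelium, differed by 0.16 ± 0.29 at its brighter probe. Its dimmer probe, 143 bases away, had a positive difference too, 0.73 ± 0.28 (unadjusted p = 0.035, adjusted p = 0.55).

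ERG and FLI1 bind DNA at a GGAA core, so the 250 bases upstream of the start site were searched on both strands for CCGGAAG and CAGGAAG, which differ at the second base. RefSeq entries (GRCm38.p6) were at hand for 18 of the 36 genes, and the entry with the lowest start was used where a gene had several. CCGGAAG was found in 0 of the 18 and in 7.14% of 27025 promoters of the same length, and CAGGAAG in 5 of the 18 (27.8%) and in 10.6% of all. Either of them was found in 5 of the 18 (27.8%) and in 17% of all. The 5 genes were Egfl7, Emcn, Erg, Robo4 and Sele. A pair of these promoters is shown, of Robo4 with a difference of -1.52 ± 0.84 and of Egfl7 with one of -0.04 ± 0.18. The gap between these differences and any link to the letters were not tested. Capitals mark the matches, which start 50 bases upstream of the start site in Robo4 (chr9:37401722-37401971, plus strand) and 90 and 49 bases upstream in Egfl7 (chr2:26580833-26581082, plus strand). CTTCCTG is CAGGAAG read on the opposite strand.
Robo4 promoter: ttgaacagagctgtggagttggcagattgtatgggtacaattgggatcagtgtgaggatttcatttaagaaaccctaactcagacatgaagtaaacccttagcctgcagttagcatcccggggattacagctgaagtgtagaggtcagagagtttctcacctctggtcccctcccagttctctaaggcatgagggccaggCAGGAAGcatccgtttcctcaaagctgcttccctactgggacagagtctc
Egfl7 promoter: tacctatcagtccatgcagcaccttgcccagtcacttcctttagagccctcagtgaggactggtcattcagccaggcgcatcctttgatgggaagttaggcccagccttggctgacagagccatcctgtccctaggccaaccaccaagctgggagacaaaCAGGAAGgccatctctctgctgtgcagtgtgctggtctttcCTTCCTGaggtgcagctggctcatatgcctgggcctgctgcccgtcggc
A match describes these letters only, and binding was not measured.

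The genes of leukocyte adhesion did not share the negative sign. Vcam1, which holds monocytes through the integrin of Itga4, read 3.17, 3.84 and 2.07 in KO-marrow arches, against 3.04, 2.83 and 2.51 in WT-marrow arches. The KO arrays took both the highest and the lowest place, and the difference was 0.23 ± 0.42 (adjusted p = 0.90). At the other Vcam1 probe the difference was 0.58 ± 0.36. Icam1, the ligand of the leukocyte integrins with Itgb2, read -2.15, -2.03 and -4.31 in KO-marrow arches, against -2.75, -3.26 and -3.33 in WT-marrow arches, and was well above background on 2 of the 3 KO arrays. Its difference of 0.28 ± 0.58 (adjusted p = 0.91) changed sign with the arrays, at -0.06 without KO replicate 1 and -0.12 without KO replicate 2.

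Selp, the selectin stored in endothelial granules and platelets, read -0.62, 0.44 and -0.02 in KO-marrow arches, against -0.36, -0.04 and -0.83 in WT-marrow arches. The groups overlapped, at 0.34 ± 0.31 (adjusted p = 0.77). The 7 platelet and megakaryocyte markers summed to 17.2, 11.4 and 37.5 in KO-marrow arches, against 8.63, 13.0 and 10.1 in WT-marrow arches, and their part in the Selp level was not tested. Sele, the selectin made by activated endothelium, was well above background on the array of KO replicate 2 and on no other, so no difference is given. The median of the 3 tested adhesion genes was 0.28, which is the difference of Icam1. This median was -0.12 without KO replicate 2 and 0.71 without KO replicate 3, so no direction of the list is read from it.

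Of the capillary and venule genes, Gpihbp1, which carries lipoprotein lipase to the capillary lumen and is abundant in fat and muscle, read 3.70, 0.71 and 0.81 in KO-marrow arches, against 3.64, 2.72 and 3.33 in WT-marrow arches. KO replicate 1 was the highest array and KO replicates 2 and 3 were far under the WT arrays, so that the difference of -1.49 ± 0.76 (adjusted p = 0.62) was 0.47 without them. Plvap, the diaphragm protein of fenestrae and caveolae, differed by 0.05 ± 0.33 at its brighter probe and -0.03 ± 0.20 at the other. Esm1, a proteoglycan released by endothelial tip cells, differed by 0.32 ± 0.51.

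The lymphatic genes were mostly dim. Lyve1, a hyaluronan receptor of lymphatic endothelium and of a subset of arterial macrophages, read -0.88, -1.09 and -2.71 in KO-marrow arches, against 0.03, -1.22 and 0.23 in WT-marrow arches. WT replicate 2 lay among the KO arrays, and the difference of -1.24 ± 0.56 (adjusted p = 0.59) was negative under all 16 other settings tried. Mmrn1, a multimerin of platelets and lymphatic endothelium, read -2.03, -2.67 and -0.92 in KO-marrow arches, against -3.02, -1.96 and -2.97 in WT-marrow arches, with a difference of 0.78 ± 0.47 (adjusted p = 0.67). Its highest array, KO replicate 3, was also the array with the highest platelet marker sum, and the part of platelets in it was not tested. Prox1, the factor that sets lymphatic fate, was well above background on 0 of 6 arrays, and Flt4, the receptor for VEGF-C, on KO replicate 1 and WT replicates 1 and 3. The 8 tested macrophage markers summed to 149, 148 and 175 in KO-marrow arches, against 103, 134 and 104 in WT-marrow arches. The brightest Itgam probe contributed most to this sum, at log2 levels of 6.88, 6.62 and 7.26 in KO-marrow arches, against 6.13, 6.78 and 6.23 in WT-marrow arches. The probes of Itgam disagreed in sign, so no direction is read from the sum. The differences of the 8 markers were positive for 5 and negative for 3, at a median of 0.11. The negative ones were Mrc1 and Folr2, receptors of resident macrophages, at -0.46 ± 0.84 and -0.39 ± 0.59, and Csf1r at -0.05 ± 0.17. Another Csf1r probe had 0.53 ± 0.14. Lyz2 and Emr1, at 1.64 ± 0.55 and 0.53 ± 0.27, had every KO array above every WT array, as had 7.58% of all tested probes (adjusted p = 0.51 and 0.62). Like Lyve1, the markers Mrc1, Folr2, Csf1r, Cd68 and Cd14 were lowest on KO replicate 3 at their brightest probes, while Lyz2, Emr1 and Itgam were not. At the other Cd68 probe, KO replicate 3 read -4.04, and WT replicates 2 and 3 were lower at -4.38 and -4.13. At the Csf1r probe with 0.53 ± 0.14, KO replicate 3 was above every WT array, and at the remaining Csf1r probe it was lowest. The part of macrophages in the Lyve1 level was not tested.

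The low values gathered on certain arrays. Of the 33 genes, KO replicate 1 had 8 below the range of the WT arrays and 10 above it, KO replicate 2 had 13 below and 7 above, and KO replicate 3 had 21 below and 5 above. The shares below were 24.2%, 39.4% and 63.6%, beside 28.1%, 32.8% and 28.9% over all tested probes on the same arrays. The shares above were 30.3%, 21.2% and 15.2%, beside 32.7%, 28.1% and 39.9% over all tested probes. Genes below the WT range on exactly 2 KO arrays numbered 11 (33.3%, against 19.2% of all tested probes): Aplnr, Cdh5, Clec14a, Emcn, Fli1, Gpihbp1, Ptprb, Robo4, Sox17, Sox18 and Sox7. These arrays were KO replicates 1 and 2 for Ptprb, KO replicates 1 and 3 for Clec14a, and KO replicates 2 and 3 for the others. The median of the transcription factors relative to the WT mean was 0.01, -0.51 and -0.67 on KO arrays 1, 2 and 3, and that of the surface and junction genes -0.01, -0.16 and -0.38. The receptors with Angpt2 and Ramp2 stood at -0.09, -0.12 and -0.87, and the lymphatic genes at 0.04, -0.39 and -0.33. The adhesion genes stood at 0.37, 1.05 and -0.73, and the capillary and venule genes at -0.09, 0.57 and -0.30, so these lists were not low on KO replicate 2. The white adipocyte markers on those arrays stood at 0.23, -2.09 and -2.89, and the brown adipocyte markers at 0.48, -2.20 and -3.30. The arrays low in fat-cell RNA were thus also those with most endothelial genes under the WT range, and the part of fat tissue in the endothelial values was not tested.

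**Figure D3:**
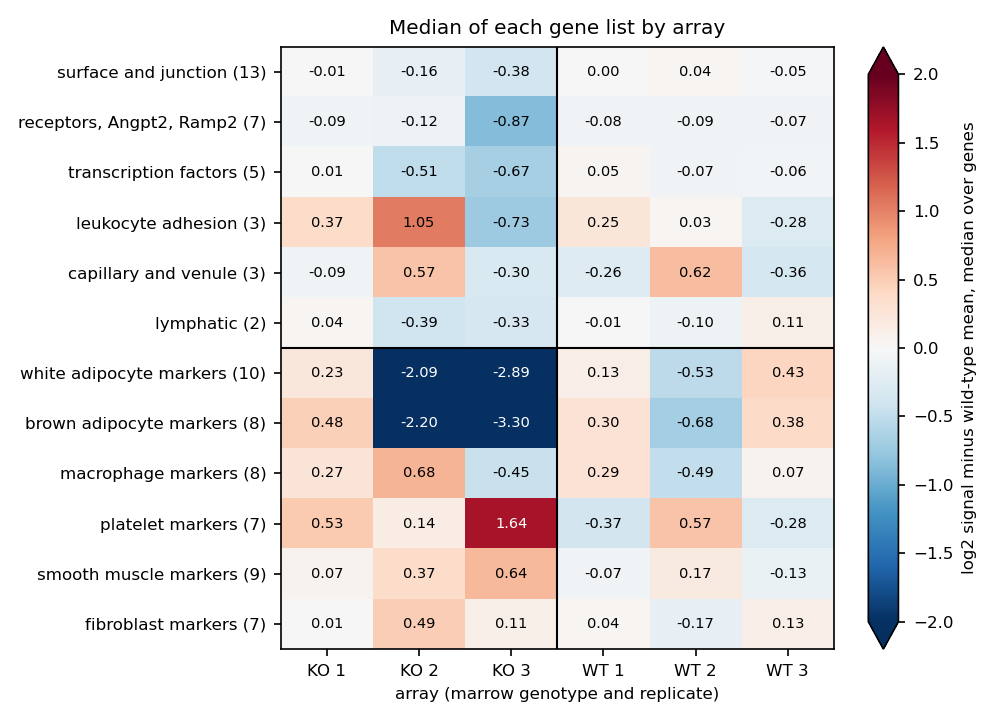
Median over the tested genes of each list of the log2 signal minus the WT mean, on each KO-marrow and WT-marrow array, with the number of tested genes in brackets; endothelial lists are above the line and markers of other cell types under it, and the colour scale ends at 2 in either direction. The adipocyte rows read -2.09 or lower on KO 2 and KO 3, the transcription factor row -0.51 and -0.67, and the smooth muscle row 0.37 and 0.64 on the same arrays. The adhesion row reads 1.05 and -0.73 there.

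Endothelial genes outside the 36 also had mostly negative differences, but with another order of the arrays. Their median relative to the WT mean was -0.25, 0.05 and -0.14 on KO arrays 1, 2 and 3. For the blood endothelial genes of the 36 it was -0.01, -0.12 and -0.51. Of 23 tested genes outside the 36, 18 had negative and 5 positive differences (78.3% negative, against 46.8% of all tested probes), at a median of -0.15. At an unadjusted limma p under 0.05 there were 0 in either direction, beside 4.27% lower and 4.44% higher among all tested probes. Groups that did not overlap numbered 0, beside 6.14% lower and 7.58% higher among all tested probes. The genes with the smallest p were Gpr116, an adhesion-type receptor of endothelium and lung epithelium, and Arhgef15. Gpr116 read 1.28, 0.04 and -0.93 in KO-marrow arches, against 1.67, 0.996 and 1.28 in WT-marrow arches, at -1.19 ± 0.51 (adjusted p = 0.57). Arhgef15 read 1.62, 1.38 and 1.20 in KO-marrow arches, against 2.02, 1.52 and 2.05 in WT-marrow arches, at -0.46 ± 0.21 (adjusted p = 0.58). Vwf, the clotting protein of endothelial granules, differed by -0.0082 ± 0.42 and Nos3, the endothelial nitric oxide synthase, by -0.15 ± 0.21.

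Among 8 tested ligands of these receptors the median difference was 0.02. At an unadjusted limma p under 0.05, 1 of the 8 was higher and 0 were lower, beside 4.44% and 4.27% of all tested probes. That ligand was Vegfc, which acts on Flt4 and Kdr, with 0.71, 1.07 and 0.83 in KO-marrow arches, against 0.0012, 0.51 and 0.07 in WT-marrow arches. Every KO array exceeded every WT array, as at 7.58% of all tested probes, and the difference was 0.67 ± 0.20 (unadjusted p = 0.010, adjusted p = 0.47). Adm, the adrenomedullin precursor whose receptor Ramp2 helps to form, differed by 0.41 ± 0.22 (adjusted p = 0.64) and so had the opposite sign to Ramp2. Of 9 leukocyte partners of the adhesion molecules, each at its brightest probe, 8 had positive differences, Itgam among them, and 1 a negative one, with a median of 0.39. The negative one was Itgal at -0.04 ± 0.17, with 0.49 ± 0.27 and 0.33 ± 0.16 at its other probes. At an unadjusted limma p under 0.05 there were 0, beside 4.27% lower and 4.44% higher among all tested probes. In 1 of the 9, Itgb7 at 0.37 ± 0.17, every KO array exceeded every WT array, as at 7.58% of all tested probes. Itgam, the myeloid integrin chain that binds Icam1, differed by 0.54 ± 0.24 at its brightest probe, and Selplg, the ligand of the selectins, by 0.54 ± 0.25 (adjusted p = 0.59 for each). The Itgam probes disagreed in sign. A dimmer one read -1.59, -1.90 and -2.01 in KO-marrow arches, against -1.51, -1.29 and -1.11 in WT-marrow arches, with no overlap and a difference of -0.53 ± 0.19 (unadjusted p = 0.024, adjusted p = 0.52), and the other had 0.22 ± 0.14, so that no direction is given for Itgam. Of 7 other lymphatic genes 6 were tested, 3 positive and 3 negative, led by Pdpn at 0.64 ± 0.32 and Stab2 at 0.74 ± 0.41 (adjusted p = 0.62 and 0.65).

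**Figure D4:**
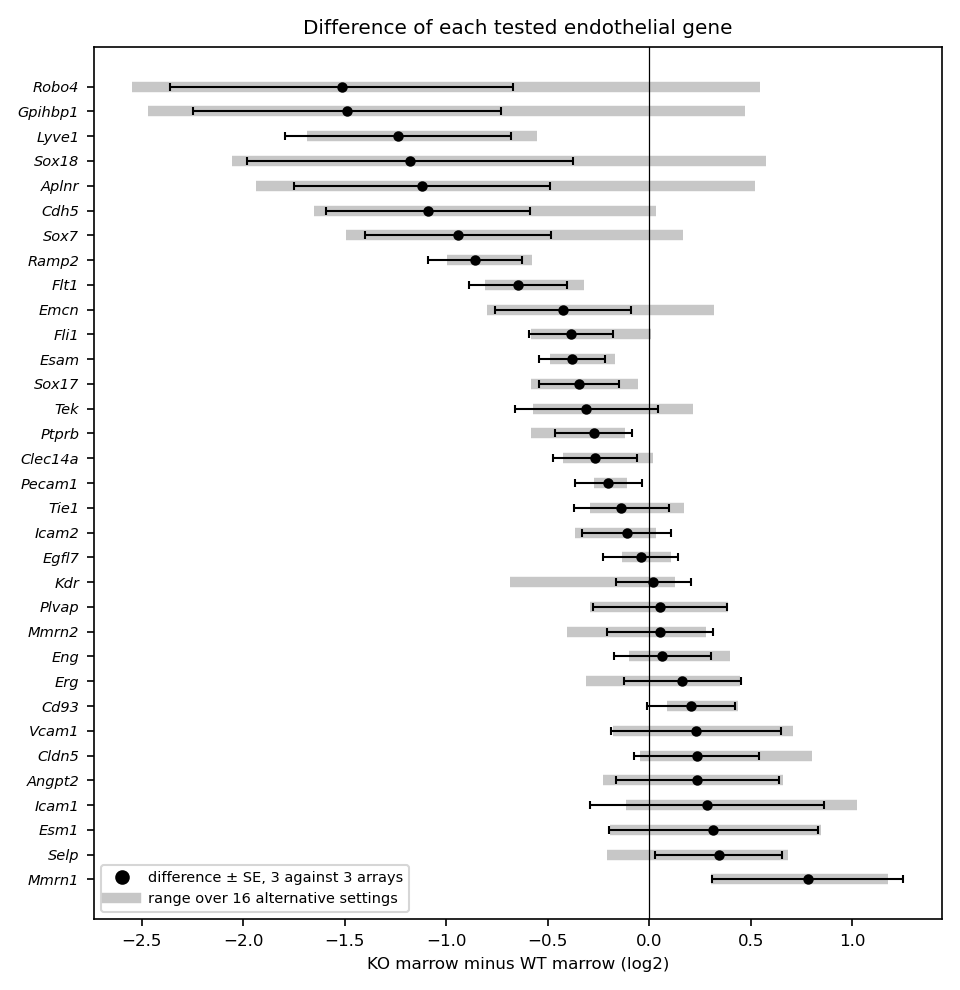
Difference between KO-marrow and WT-marrow arches (x axis, log2) for each of the 33 tested genes, with points and black bars for the difference ± SE of 3 against 3 arrays and grey bars for the lowest and highest value over 16 other settings. The grey bars of Ramp2 (-0.996 to -0.58), Flt1 (-0.81 to -0.32) and Esam (-0.49 to -0.17) stay left of 0, while that of Robo4 runs from -2.54 to 0.55. Ramp2, Flt1 and Esam had no overlap between groups, so leaving arrays out could not carry their bars past 0.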

How the data were processed

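RNA of 6 aortic arches, 3 per group, was read on 1-colour Agilent arrays. Per the file headers, the deposited processed signal is a linear intensity, background-subtracted by Agilent Feature Extraction 10.7.3.1 in files annotated on mm9. The authors' deposited series table held the same intensity within 0.50%. Outlier spots were left out, spots of a probe were averaged, and log2 of the deposited signal minus the array's 75th percentile over non-control spots was fitted with limma 3.58.1 in R 4.3.3 (lmFit, eBayes, 2-sided, KO minus WT, no covariate), with Benjamini-Hochberg adjustment over 38341 tested probes at a threshold of 0.05. Outlier spots removed 10 probes. The fit was tested on simulated data.

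The members and gene lists were chosen with earlier results of these data known. Values on every array are given for 12 genes named in the rule (Pecam1, Cdh5, Kdr, Flt1, Tek, Vcam1, Icam1, Sele, Selp, Sox17, Lyve1, Prox1), for genes without overlap between groups and for the 5 largest differences, and the 2 genes with the smallest p are named from each further list. Sele and Prox1, which were not tested, are given by detection. Where tested probes of a member differ in sign or by over 1 (log2), both are given. Alternatives were another background correction, other scalings, no filter, the series table, a replicate block, other variance models, array weights, the mean over probes and leaving out each array. Leaving out KO replicates 2 and 3 together, which keeps KO replicate 1 alone in its group, was added after seeing the data. The number of arrays limits the precision.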

Additional observations from a re-analysis of the deposited data

How the results depend on the processing

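The count of probes past the adjusted test (1) was 4 with normexp background correction, 2 when arrays were centred on their median, 2 with array weights, 2 with the variance trended and robust, 1 to 3 with single arrays left out, and 6 without KO replicates 2 and 3, the setting added after seeing the data, in which the lone KO array is assumed to vary like the WT arrays. No gene result had an adjusted p under 0.05 in any setting that gave one, the lowest being 0.058 at the downstream Kdr probe. The count of members lower at an unadjusted p under 0.05 (3) was 6 with normexp, 6 with the replicate block, 11 with array weights and 1 to 13 with single arrays left out, and that of members higher (0) was 1 without the filter on dim probes, 1 with array weights and 0 to 3 with single arrays left out. The share of all tested probes in those settings is not given, so these counts are not read as particular to endothelial genes. The numbers were not taken to pair the samples, since same-numbered arrays correlated at 0.12, 0.05 and -0.28 in their deviations from the group means. Sele, Flt4 and Prox1 were too near background for a difference. The lymphatic median (-0.23) was 0.12 without the filter and 0.18 without KO replicates 2 and 3. The blood endothelial median was -0.25 to -0.12 and the adhesion median -0.12 to 0.71 with single arrays left out. Of 36 gene results, 11 kept their direction in every setting, Ramp2, Flt1, Esam, Pecam1, Ptprb, Cd93, Lyve1, Mmrn1, Sox17 at both probes and Erg at its dimmer probe. For Ramp2, Flt1 and Esam, whose groups did not overlap, leaving arrays out could not change the direction. Kdr was -0.021 with normexp and -0.69 as a mean over probes, Clec14a was 0.018 as a mean over probes, and Egfl7 was 0.029 with quantile normalization and 0.0036 with array weights. Without KO replicates 2 and 3, the differences were Angpt2 -0.23, Aplnr 0.52, Cdh5 0.035, Emcn 0.32, Erg -0.31, Esm1 -0.088, Fli1 0.011, Gpihbp1 0.47, Kdr -0.090 and at its downstream probe 0.54, Mmrn2 -0.41, Plvap -0.29, Robo4 0.55, Selp -0.21, Sox18 0.57, Sox7 0.17, Tek 0.22 and Tie1 0.17. With single arrays left out, the differences that changed sign ran from -0.11 to 0.66 for Angpt2, -0.048 to 0.48 for Cldn5, -0.13 to 0.11 for Egfl7, -0.10 to 0.31 for Eng, -0.056 to 0.40 for Erg, -0.19 to 0.75 for Esm1, -0.12 to 1.02 for Icam1, -0.28 to 0.034 for Icam2, -0.10 to 0.13 for Kdr, -0.16 to 0.28 for Mmrn2, -0.21 to 0.36 for Plvap, -0.57 to 0.11 for Tek, -0.29 to 0.11 for Tie1 and -0.18 to 0.71 for Vcam1.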
